A study of Homo sapiens with 8 samples.

Results

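The IL-6 and IL-12 families of cytokine genes were examined as 10 genes fixed by symbol, out of 30233 genes in the deposited expression table: the IL-6 family ligands IL6, LIF and OSM, the IL-6 receptor chains IL6R and IL6ST, and the chains IL12A, IL12B, IL23A, EBI3 and IL27 of the IL-12 family. All 10 had a row in the table, and 6 of them (IL6, LIF, IL6R, IL6ST, IL23A, EBI3) passed a filter of at least 0.5 FPKM in at least 4 libraries, whereas 4 (OSM, IL12A, IL12B, IL27) lay below it. The deposited unit, FPKM, by definition divides a gene's fragments by its length and by the sequencing total of its library. The cells were THP-1, a human monocytic leukaemia line, labelled as wild type and turned into macrophage-like cells with the phorbol ester PMA at 100 ng/ml for 24 h, followed by 24 h without it. The LPS+3-HPA group (4 libraries) received 100 ng/ml LPS, a bacterial outer-membrane component, together with 5 mM 3-HPA (3-hydroxypropionic acid, a small organic acid). The LPS group (4 libraries) received 100 ng/ml LPS alone. No library was unstimulated or given 3-HPA without LPS, so each difference lies between LPS-stimulated states of a single cell line. How long LPS was applied is not stated in the labels, which describe simultaneous treatment whereas the series description speaks of pretreatment. Nothing in the labels says that replicates were separate cultures, so p-values measure only the spread between libraries and that spread may be technical.

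IL-6 family ligands act through receptor complexes that share the chain gp130, the product of IL6ST. IL-6 itself first binds IL6R, in the membrane or as a shed soluble form, and the assembled complex signals through JAK kinases to the transcription factor STAT3, whose target SOCS3 feeds back on gp130. IL-12 family cytokines are heterodimers of a helical chain and a receptor-like chain: IL12A with IL12B forms IL-12, IL23A with IL12B forms IL-23, IL27 with EBI3 forms IL-27, and IL12A with EBI3 has been described as IL-35. In macrophages many of the cytokine genes are known as LPS-induced, with NF-κB, AP-1, C/EBP and interferon regulatory factors acting at their promoters, and several of their mRNAs carry AU-rich elements that the ZFP36 proteins bind.

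The promoters of the genes whose levels carry the comparison are shown because IL6, IL23A and EBI3 were lower with 3-HPA, whereas IL6R was higher. Each line gives the 250 bases before the RefSeq start site, 5′ to 3′ on the gene's strand (RefSeq, GRCh38.p14). The table holds a promoter for 7 of the 10 genes. Capitals mark matches on either strand to an NF-κB pattern (3 G, any 5 bases, 2 C), an AP-1 pattern (TGA, any base, TCA), an IRF pattern (GAAA, any 2 bases, GAAA), CRE TGACGTCA or C/EBP TTNNGNAA, and overlapping matches run together.
IL6 (chr7:22726950-22727199, plus strand): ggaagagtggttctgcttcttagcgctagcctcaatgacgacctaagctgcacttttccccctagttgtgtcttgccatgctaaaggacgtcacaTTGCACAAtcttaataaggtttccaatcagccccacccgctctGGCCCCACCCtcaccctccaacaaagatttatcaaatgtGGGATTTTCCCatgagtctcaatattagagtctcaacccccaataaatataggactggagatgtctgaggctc
IL23A (chr12:56338634-56338883, plus strand): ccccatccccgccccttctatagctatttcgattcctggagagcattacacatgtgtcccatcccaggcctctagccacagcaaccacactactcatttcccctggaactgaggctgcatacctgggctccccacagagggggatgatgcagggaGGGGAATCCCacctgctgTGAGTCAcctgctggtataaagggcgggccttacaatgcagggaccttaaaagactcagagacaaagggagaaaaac
EBI3 (chr19:4229273-4229522, plus strand): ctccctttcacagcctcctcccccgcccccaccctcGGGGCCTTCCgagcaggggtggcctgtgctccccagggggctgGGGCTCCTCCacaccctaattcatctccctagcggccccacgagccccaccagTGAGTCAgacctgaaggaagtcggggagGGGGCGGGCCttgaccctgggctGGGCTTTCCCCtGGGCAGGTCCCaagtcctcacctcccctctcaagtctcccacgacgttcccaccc
IL6R (chr1:154405093-154405342, plus strand): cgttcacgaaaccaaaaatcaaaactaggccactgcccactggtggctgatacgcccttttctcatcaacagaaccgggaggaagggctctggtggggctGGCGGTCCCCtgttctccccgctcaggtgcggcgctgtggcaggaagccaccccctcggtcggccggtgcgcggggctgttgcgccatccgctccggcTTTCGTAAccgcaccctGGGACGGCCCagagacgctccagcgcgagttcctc
Positions count back from the start site, so that -1 is the base before it. The IL6 promoter held GGGATTTTCC from -73 and a C/EBP match from -155. The IL23A promoter held GGGGAATCCC from -95 and the AP-1 match TGAGTCA from -77, and the EBI3 promoter held the same AP-1 letters from -118 beside 7 NF-κB matches, some of them overlapping. The NF-κB pattern is loose, with a match in 53.7% of 27305 promoters of this length, and C/EBP matched 33.6%, AP-1 6.6%, IRF 3.07% and CRE 1.77%. IL6R, which went the other way, held 2 NF-κB matches and 1 C/EBP match, and none of the 7 promoters matched the IRF or CRE pattern. IL12B matched none of the 5 patterns in this window. A match describes letters and not a bound site.

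The 3′ untranslated regions are shown as short windows, since the pentamer ATTTA, with U for T in RNA, is the core of AU-rich elements. Each line gives the 30 bases richest in ATTTA, 5′ to 3′ on the gene's strand, from the GENCODE 29 transcript on GRCh38, with ATTTA in capitals.
IL6 (chr7:22731697-22731726, plus strand): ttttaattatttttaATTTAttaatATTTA
IL23A (chr12:56340335-56340364, plus strand): cagtttggggaggattATTTAttgtATTTA
LIF (chr22:30240522-30240551, minus strand): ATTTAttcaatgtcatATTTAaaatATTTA
The IL6 region held 6 ATTTA in 429 bases, a density of 13.99 per kb that 0.687% of 18786 genes reached. IL23A held 4 in 306 bases (13.07 per kb, reached by 0.82% of genes) and LIF 7 in 3204 bases (2.18 per kb, reached by 38.1%), against a median of 1.43 per kb. The scarce chains IL12A (17.66 per kb), IL27 (13.84 per kb) and IL12B (9.1 per kb) were also dense in the pentamer, whereas EBI3 held 0 in 443 bases. High density was found in IL6 and IL23A, which fell with 3-HPA, and in the scarce chains IL12A, IL27 and IL12B. Lower density was found in the scarce OSM (4.74 per kb, reached by 10.9% of genes). It was also lower in EBI3 and in IL6ST (3.84 per kb, reached by 17.3%), which fell by less. The same held for LIF and for IL6R (1.47 per kb, reached by 49.4%), which rose. No cut-off was set, and of the genes with lower density only EBI3 lay below the median of 1.43 per kb. Density depends on the length of the region, and counts gave another order. LIF held 7 ATTTA and 5 of the longer TATTTAT, against 6 and 3 in IL6 and 4 and 4 in IL23A. IL6ST held 23 and 1, IL6R 6 and 0, and EBI3 0 of both. A part of these letters in the changes was not tested.

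With 3-HPA, IL6 and IL23A fell to about the same extent, EBI3 and IL6ST fell by less, and LIF and IL6R rose. Of the 6 tested genes, 2 were higher and 4 lower at an adjusted p under 0.05 (limma, Benjamini-Hochberg adjustment over all 12499 genes tested), and 0 did not pass. Among all genes tested 43.7% passed, 15.7% upward and 28.0% downward, so a pass alone is common in this comparison. Of the genes called, 36% were higher as deposited, 51.4% under TMM scaling, 46.3% under quantile normalisation and 28.5% with equal FPKM totals. The median log2 fold change was -0.25 over the 6 genes and -0.05 over all genes tested. The size of the change sets some of them further apart: 1.24% of all genes changed at least as much as IL6, 1.25% as much as IL23A, 1.71% as much as LIF and 4.66% as much as IL6R, against 16.7% for EBI3 and 39.2% for IL6ST. For each of the 6 the libraries of one group lay wholly above those of the other, as was the case for 42.2% of all genes tested (15.3% with LPS+3-HPA above and 26.9% with it below). Because 1 was added to each FPKM before the log2, changes of scarce genes come out too small, and fewer cells expressing a gene cannot be told apart from less RNA per cell.

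**Figure D1:**
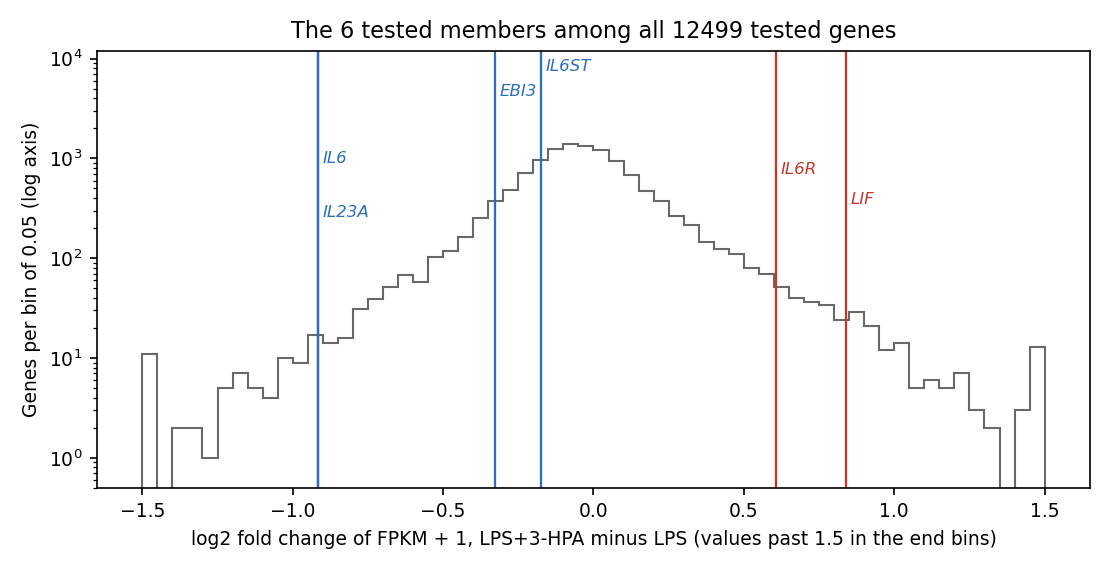
Distribution of the log2 fold change (LPS+3-HPA minus LPS) of log2(FPKM + 1) over all 12499 tested genes, as genes per bin on a log axis, with vertical lines for the 6 tested members (red, higher with 3-HPA; blue, lower). IL6 and IL23A share a place at -0.92 in the lower tail, LIF (0.84) and IL6R (0.61) lie in the upper tail, and EBI3 and IL6ST lie closer to the centre.

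Among the ligands, IL6 (ENSG00000136244; GRCh38 chromosome 7, 22725884 to 22732002) encodes the cytokine that drives the hepatic acute-phase response. It had 7.03, 7.77, 6.95 and 6.30 FPKM in LPS+3-HPA libraries 1 to 4, against 14.2, 14.1, 14.0 and 14.1 FPKM in LPS libraries 1 to 4. Every LPS+3-HPA library lay below every LPS library. The ratio of mean FPKM, LPS+3-HPA over LPS, was 0.497, and the log2 fold change was -0.92 (SE of 0.05; limma adjusted p = 8.27e-07). The coefficient of variation was 8.61% in LPS+3-HPA libraries and 0.736% in LPS libraries. With 4 libraries per group such values are imprecise, and a difference in spread was not tested. The FPKM values of IL6 rest on 1015 to 1356 reads per LPS+3-HPA library and 2308 to 2554 reads per LPS library. The length behind its FPKM was 4321 bases, longer than the 1527 bases of the reference transcript, so that its FPKM is low relative to genes whose length is nearer to their transcript. The ratio of mean FPKM is not touched by this length. The log2 fold change comes out smaller in size, because 1 was added to each FPKM. By whole reads the log2 fold change of IL6 was -1.008 (limma voom). On the opposite strand STEAP1B and AC073072.1 overlap IL6 by 1730 and 1737 bases. They had at most 0.0996 and 0.138 FPKM in a library, beside at least 6.30 FPKM for IL6. With no strand setting stated, reads of the shared parts cannot be told apart.

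LIF (ENSG00000128342; chromosome 22, 30240447 to 30246851), for a ligand of the same receptor family that is named for its effect on leukaemia cells, went the opposite way. It had 5.54, 4.81, 5.56 and 5.39 FPKM in LPS+3-HPA libraries 1 to 4, against 2.60, 2.55, 2.52 and 2.44 FPKM in LPS libraries 1 to 4. The groups lay apart, with a ratio of mean FPKM of 2.1 and a log2 fold change of 0.84 (SE of 0.05; limma adjusted p = 8.9e-07). By whole reads the fold change was 1.07 (limma voom), larger than on the scale with the added 1. AC004264.1 overlaps LIF on the opposite strand by 647 bases and had at most 0.134 FPKM in a library. Reads of that part cannot be told apart either. The level of LIF relative to IL6 was 0.766 ± 0.102 in LPS+3-HPA libraries and 0.18 ± 0.004 in LPS libraries (mean ± SD of the FPKM ratio, n = 4 each). Neither gene overlapped between groups and they went opposite ways. That each LPS+3-HPA library lay above each LPS library in this ratio was thus fixed and adds no evidence. The length of IL6 enters this ratio alike in both groups.

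OSM (ENSG00000099985; chromosome 22, 30262829 to 30266840), the neighbour of LIF on the chromosome, encodes oncostatin M, a macrophage product that acts on stromal and liver cells. It held 42, 34, 20 and 22 reads in LPS+3-HPA libraries 1 to 4, against 11, 12, 22 and 44 reads in LPS libraries 1 to 4. The groups overlapped, OSM lay below the filter at 0.366 ± 0.122 FPKM in LPS+3-HPA libraries and 0.260 ± 0.169 FPKM in LPS libraries, and no call was made. Without the filter its log2 fold change was 0.12 (SE 0.10, limma adjusted p = 0.564), so a difference was not detectable at this depth.

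**Figure D2:**
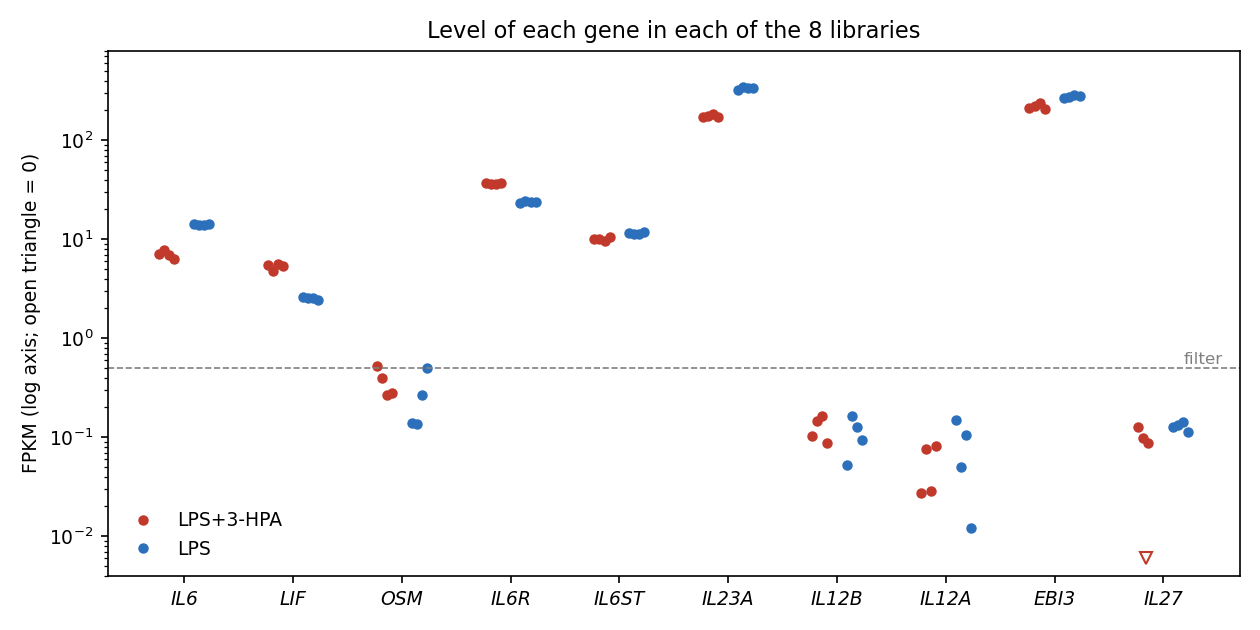
FPKM on a log axis for each of the 10 genes, each point a library, with LPS+3-HPA in red to the left of LPS in blue; the dashed line is the filter at 0.5 FPKM and the open triangle a library at 0. IL23A and EBI3 lie between 169.6 and 344.1 FPKM, while their partners IL12B, IL12A and IL27 lie at 0.165 FPKM or lower.

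Among the receptor chains, IL6R (ENSG00000160712; chromosome 1, 154405193 to 154469450), the ligand-binding chain, was higher with 3-HPA. It had 36.7, 36.4, 36.0 and 37.2 FPKM in LPS+3-HPA libraries 1 to 4, against 23.3, 24.0, 23.7 and 23.7 FPKM in LPS libraries 1 to 4. All libraries of a group lay close together and the groups lay far apart, with a ratio of mean FPKM of 1.54 and a log2 fold change of 0.61 (SE of 0.02; limma adjusted p = 2.71e-08). The antisense gene IL6R-AS1, named after its values were seen, overlaps the 5′ end of IL6R by 1372 bases. Its FPKM was 1.58 ± 0.290 in LPS+3-HPA libraries and 0.456 ± 0.133 in LPS libraries (SD, n = 4 each; log2 fold change 0.82, limma adjusted p = 0.000136). The added 1 shrinks this change, and by whole reads it was 1.81 (limma voom). Since the strand setting is not stated, reads of the overlapping parts cannot be told apart, although IL6R-AS1 had at most 1.86 FPKM beside at least 23.3 FPKM for IL6R.

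IL6ST (ENSG00000134352; chromosome 5, 55935095 to 55994993), for the shared chain gp130, was slightly lower. It had 10.1, 9.95, 9.68 and 10.4 FPKM in LPS+3-HPA libraries 1 to 4, against 11.7, 11.3, 11.2 and 11.7 FPKM in LPS libraries 1 to 4. The gap between the groups was narrow but no library crossed it, with a log2 fold change of -0.17 (SE of 0.03; limma adjusted p = 0.00107). A processed pseudogene of 78 bases, AC016596.1, lies within IL6ST on the opposite strand and averaged 207 FPKM in LPS+3-HPA libraries and 170.2 FPKM in LPS libraries. It was named after its values were seen, and its reads cannot be told apart from IL6ST reads there. The chains went opposite ways, and the ratio of IL6R to IL6ST was 3.64 ± 0.063 in LPS+3-HPA libraries and 2.07 ± 0.063 in LPS libraries (mean ± SD of the FPKM ratio, n = 4 each). The difference in the log2 ratio was 0.82, with an exact two-sided permutation p of 0.0286, the smallest that 4 against 4 libraries can give. Since neither gene overlapped between groups and the genes went opposite ways, this p was fixed by those results and adds no evidence. This ratio was the only 1 of the 5 chain ratios planned in which both genes passed the filter. In 4 of 4 LPS+3-HPA libraries it lay above every LPS library.

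Of the IL-12 family, IL23A (ENSG00000110944; chromosome 12, 56334174 to 56340410), the helical chain particular to IL-23, was the most abundant member in LPS libraries and fell with 3-HPA. It had 169.6, 176.6, 185.8 and 171.9 FPKM in LPS+3-HPA libraries 1 to 4, against 317.7, 344.1, 335.1 and 335.6 FPKM in LPS libraries 1 to 4. Every LPS+3-HPA library lay far below the lowest LPS library. The ratio of mean FPKM was 0.528 and the log2 fold change -0.92 (SE of 0.03; limma adjusted p = 6.9e-08). By mean FPKM, IL23A ranked 174 in LPS+3-HPA libraries and 84 in LPS libraries, counted against the 12499 tested genes.

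EBI3 (ENSG00000105246; chromosome 19, 4229498 to 4237531), the receptor-like chain of IL-27, was of similar abundance and fell by less. It had 212.1, 219.6, 236.2 and 207.7 FPKM in LPS+3-HPA libraries 1 to 4, against 264.1, 274.0, 283.1 and 277.0 FPKM in LPS libraries 1 to 4. The groups did not overlap, with a ratio of mean FPKM of 0.797 and a log2 fold change of -0.33 (SE of 0.04; limma adjusted p = 0.000153). The order of the 2 genes turned round: IL23A stood at 0.804 ± 0.017 of EBI3 in LPS+3-HPA libraries and at 1.21 ± 0.030 of EBI3 in LPS libraries (mean ± SD of the FPKM ratio, n = 4 each). This ratio and that of LIF to IL6 were chosen after their values were seen and are given without a test.

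The partner chains that IL23A and EBI3 need to form heterodimers held few reads in these libraries. IL12A and IL12B lie wholly within the opposite-strand genes IL12A-AS1 and AC008691.1, which had at most 0.025 and 0.0039 FPKM in a library. With no strand setting stated, reads of the shared parts cannot be told apart, so the level of both chains is less certain. IL12B (ENSG00000113302; chromosome 5, 159314783 to 159330887), shared by IL-12 and IL-23, held 12, 18, 18 and 10 reads in LPS+3-HPA libraries 1 to 4, against 6, 21, 15 and 12 reads in LPS libraries 1 to 4. The groups overlapped, at 0.125 ± 0.036 FPKM in LPS+3-HPA libraries and 0.109 ± 0.048 FPKM in LPS libraries. Mean IL23A was 1408 times mean IL12B in LPS+3-HPA libraries and 3048 times in LPS libraries, a ratio that rests on the few IL12B reads. IL27 (ENSG00000197272; chromosome 16, 28499362 to 28512051), the helical partner of EBI3, held 6, 5, 4 and 0 reads in LPS+3-HPA libraries 1 to 4, against 6, 7, 7 and 6 reads in LPS libraries 1 to 4. IL12A (ENSG00000168811; chromosome 3, 159988750 to 159996019), the helical chain of IL-12, held 2, 6, 2 and 6 reads in LPS+3-HPA libraries 1 to 4, against 11, 4, 8 and 1 reads in LPS libraries 1 to 4. The groups overlapped in both, and 1 read of IL27 or IL12A was worth 0.0221 or 0.0143 FPKM in the shallowest library. Without the filter the log2 fold changes were 0.02 for IL12B (limma adjusted p = 0.785), -0.07 for IL27 (0.318) and -0.03 for IL12A (0.67), so differences in these chains were not detectable at this depth.

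By level, with 3-HPA the order was EBI3, IL23A, IL6R, IL6ST, IL6, LIF, OSM, IL12B, IL27 and IL12A, and with LPS alone it was IL23A, EBI3, IL6R, IL6, IL6ST, LIF, OSM, IL27, IL12B and IL12A. IL6 thus stood below IL6ST with 3-HPA (7.02 ± 0.604 against 10.04 ± 0.314 FPKM) and above it with LPS alone (14.1 ± 0.104 against 11.5 ± 0.252 FPKM). IL6 is the gene whose length may lower its FPKM, so its place is uncertain. Neighbours whose library values overlapped were IL12B with IL27 and IL27 with IL12A in LPS+3-HPA libraries, and OSM with IL27, IL27 with IL12B and IL12B with IL12A in LPS libraries.

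The genes whose profile over the 8 libraries was most like that of IL6 on the log2(FPKM + 1) scale were GPD1L (a glycerol-3-phosphate dehydrogenase-like gene), the microRNA host gene MIR3945HG and TRIM14, an adaptor of antiviral signalling. Likeness was the root mean square difference, over the 8 libraries, of log2(FPKM + 1) minus the gene's mean in LPS libraries, among the 9844 tested genes with a symbol and a mean of at least 1 FPKM, and it came to 0.0485, 0.0491 and 0.0534. The added 1 shrinks the changes of scarce genes most, and without it the ratio of mean FPKM, LPS+3-HPA over LPS, was 0.400 for GPD1L, 0.488 for MIR3945HG and 0.498 for TRIM14, beside 0.497 for IL6. TRIM14 had 9.77 ± 0.423 FPKM in LPS+3-HPA libraries and 19.6 ± 0.444 FPKM in LPS libraries, and GPD1L had 1.60 ± 0.072 FPKM in LPS+3-HPA libraries and 4.00 ± 0.063 FPKM in LPS libraries. MIR3945HG had 4.42 ± 0.515 FPKM in LPS+3-HPA libraries and 9.05 ± 0.141 FPKM in LPS libraries (SD, n = 4 each).

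Other ligands and receptors of this family also went both ways. OSMR, for the oncostatin M receptor, had 12.8, 12.4, 12.6 and 13.0 FPKM in LPS+3-HPA libraries 1 to 4, against 6.59, 6.23, 6.47 and 6.30 FPKM in LPS libraries 1 to 4. It rose by 0.89 on the log2 scale (SE 0.03, limma adjusted p = 2.7e-08), without overlap. IL11, for a ligand that acts on blood-forming and stromal cells, had 10.9, 8.79, 12.4 and 9.44 FPKM in LPS+3-HPA libraries 1 to 4, against 5.91, 4.78, 6.05 and 5.12 FPKM in LPS libraries 1 to 4 (log2 fold change 0.81, SE 0.10, limma adjusted p = 0.000227). The LIF receptor gene LIFR fell by 0.28 (0.923 ± 0.129 FPKM in LPS+3-HPA libraries and 1.33 ± 0.072 FPKM in LPS libraries). By whole reads its log2 fold change was -0.53 (limma voom). Of the 9 genes of this list 5 were tested, with a median of 0.11. Of these 2 rose and 2 fell, beside 15.7% and 28.0% of all genes tested. CLCF1, for a further ligand, did not pass (0.11, limma adjusted p = 0.238). Without LPS+3-HPA library 4, CLCF1 passed (0.18, limma adjusted p = 0.0106).

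Receptor chains of the IL-12 family were present in part. IL12RB2, for the signalling chain of the IL-12 receptor, rose by 0.22, with 5.15 ± 0.092 FPKM in LPS+3-HPA libraries and 4.29 ± 0.057 FPKM in LPS libraries (limma adjusted p = 0.000277). IL12RB1, for the chain shared with the IL-23 receptor, did not pass (-0.03, limma adjusted p = 0.706), and its sign turned under TMM (0.014) and quantile scaling (0.005) and without LPS+3-HPA library 1 (0.02). IL23R, for the chain particular to the IL-23 receptor, held at most 2 reads in a library.

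**Figure D3:**
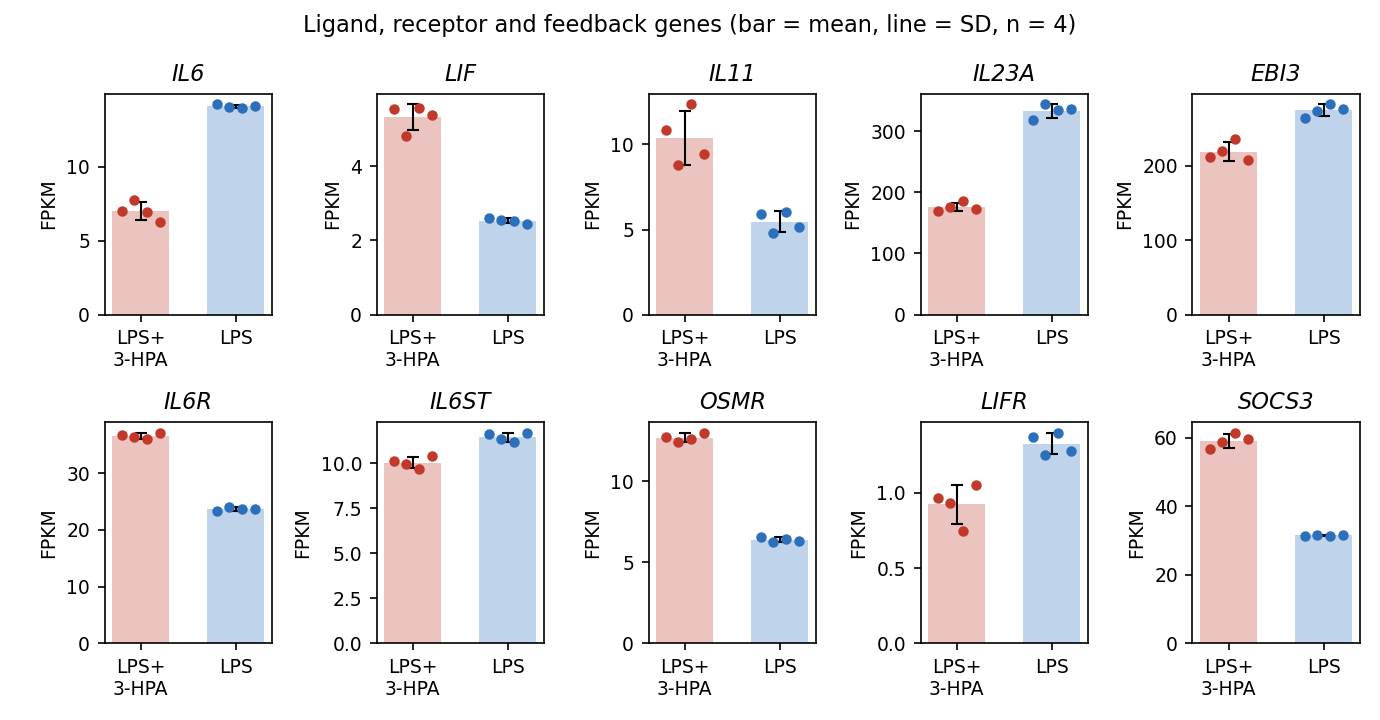
FPKM on linear axes for 5 ligand or cytokine-chain genes (top) and 4 receptor genes with SOCS3 (bottom), LPS+3-HPA left of LPS, with bars for the mean, lines for the SD (n = 4) and points for the libraries. In each panel the points of the groups lie apart, with LIF, IL11, IL6R, OSMR and SOCS3 higher and IL6, IL23A, EBI3, IL6ST and LIFR lower in LPS+3-HPA libraries.

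Among signalling genes downstream of these receptors, SOCS3 rose the most of the list. SOCS3, the feedback inhibitor of gp130 signalling, had 59.1 ± 2.04 FPKM in LPS+3-HPA libraries and 31.5 ± 0.180 FPKM in LPS libraries (log2 fold change 0.88, SE 0.02, limma adjusted p = 1.99e-08). STAT3 itself did not pass, with 36.9 ± 0.301 FPKM in LPS+3-HPA libraries and 37.3 ± 0.625 FPKM in LPS libraries (-0.01, limma adjusted p = 0.594), and under TMM scaling its value was 0.05 (adjusted p = 0.049). The kinase gene JAK2 fell by 0.40 and the phosphatase genes PTPN6 and PTPN11 rose by 0.32 and 0.18. Of 15 genes of this list 13 were tested, with a median of 0.085. Of these 5 rose and 1 fell, beside 15.7% and 28.0% of all genes tested. JAK1, for a kinase that binds gp130 and named after its value was seen, rose by 0.12.

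Of 10 genes known as STAT3 targets, 7 were higher and 1 lower, beside 15.7% higher and 28.0% lower among all genes tested. The median of the 10 was 0.24. The largest increase after SOCS3 was in TIMP1 (0.39), for an inhibitor of matrix metalloproteinases and named after its value was seen. Others were BCL3, an NF-κB cofactor (0.34), the kinase gene PIM1 (0.27) and the survival gene MCL1 (0.24). CEBPD, named after its value was seen, fell by 0.28, and STAT3 and JUNB (-0.06, limma adjusted p = 0.112) did not pass. JUNB passed as lower with equal FPKM totals (-0.098, limma adjusted p = 0.0165) and under voom (-0.063, adjusted p = 0.0488), and was positive under TMM (0.003) and quantile normalisation (0.035). SOCS3, BCL3, CEBPD and STAT3 also stand in the other lists.

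The 18 genes known as regulators of the transcription of these cytokine genes were all tested, with a median of -0.19. Of these 6 rose and 11 fell, beside 15.7% and 28.0% of all genes tested. NFKB2, for an NF-κB subunit, fell by 0.40, with 57.3 ± 1.00 FPKM in LPS+3-HPA libraries and 75.7 ± 2.95 FPKM in LPS libraries (limma adjusted p = 4.92e-06). The other NF-κB subunit genes REL (-0.33), RELB (-0.24), NFKB1 (-0.24) and RELA (-0.20), named after their values were seen, fell as well. The C/EBP genes and the interferon regulatory factor genes of this list went both ways. The largest fall was that of BATF3, for an AP-1 family factor and named after its value was seen (-0.71, 1.85 ± 0.111 FPKM in LPS+3-HPA libraries and 3.69 ± 0.465 FPKM in LPS libraries). By whole reads its log2 fold change was -0.98 (limma voom). ATF3, for a stress-induced repressor, fell by 0.29, whereas BCL3 (0.34) and SPI1, for the myeloid factor PU.1 (0.23), rose. NFKBIA, for the inhibitor of NF-κB, did not pass (-0.02, limma adjusted p = 0.614; 0.041 under TMM).

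Genes that act on the stability of these mRNAs were tested in all 10 cases, with a median of -0.01. Of these 4 rose and 1 fell, beside 15.7% and 28.0% of all genes tested. ZFP36L1, for a protein that binds AU-rich elements, had 51.7 ± 0.963 FPKM in LPS+3-HPA libraries and 32.6 ± 0.878 FPKM in LPS libraries (log2 fold change 0.65, SE 0.02, limma adjusted p = 6.9e-08). ZFP36, for its relative tristetraprolin, rose by 0.55, with 75.1 ± 2.13 FPKM in LPS+3-HPA libraries and 51.0 ± 0.632 FPKM in LPS libraries. ZFP36L2 fell by 0.20. ARID5A, for a protein known to stabilise IL6 mRNA, rose by 0.17 and ZC3H12A, for the RNase Regnase-1 and named after its value was seen, by 0.06, with groups that overlapped in both. The ARID5A call ended without LPS+3-HPA library 3 or 4 or LPS library 1 or 3 (limma adjusted p 0.0653 to 0.0668), and the ZC3H12A call without LPS+3-HPA library 2, 3 or 4 or LPS library 1 or 3 (limma adjusted p 0.0778 to 0.101). Both calls also ended with equal FPKM totals (limma adjusted p 0.0631 for ARID5A and 0.438 for ZC3H12A, whose log2 fold change was then 0.021) and with no filter (0.0703 for ARID5A and 0.101 for ZC3H12A), and that of ZC3H12A without the trend (0.123).

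Among the genes of receptor shedding, which makes soluble IL-6 receptor, ADAM10 for a cell-surface protease rose by 0.18 and RHBDF2, for a partner of the protease ADAM17, by 0.15. ERAP1, for an aminopeptidase also reported to promote shedding, fell by 0.26, and ADAM17 did not pass (0.01, limma adjusted p = 0.677; -0.024 with equal totals), although it passed as higher under TMM (0.073, limma adjusted p = 0.0255). Over all pathway lists together 58 of 66 genes were tested, with a median of 0.04 beside -0.05 for all genes tested. Of these 25 rose and 16 fell, beside 15.7% and 28.0% of all genes tested. Under TMM scaling 29 rose and 15 fell, and with equal FPKM totals 22 rose and 19 fell.

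**Figure D4:**
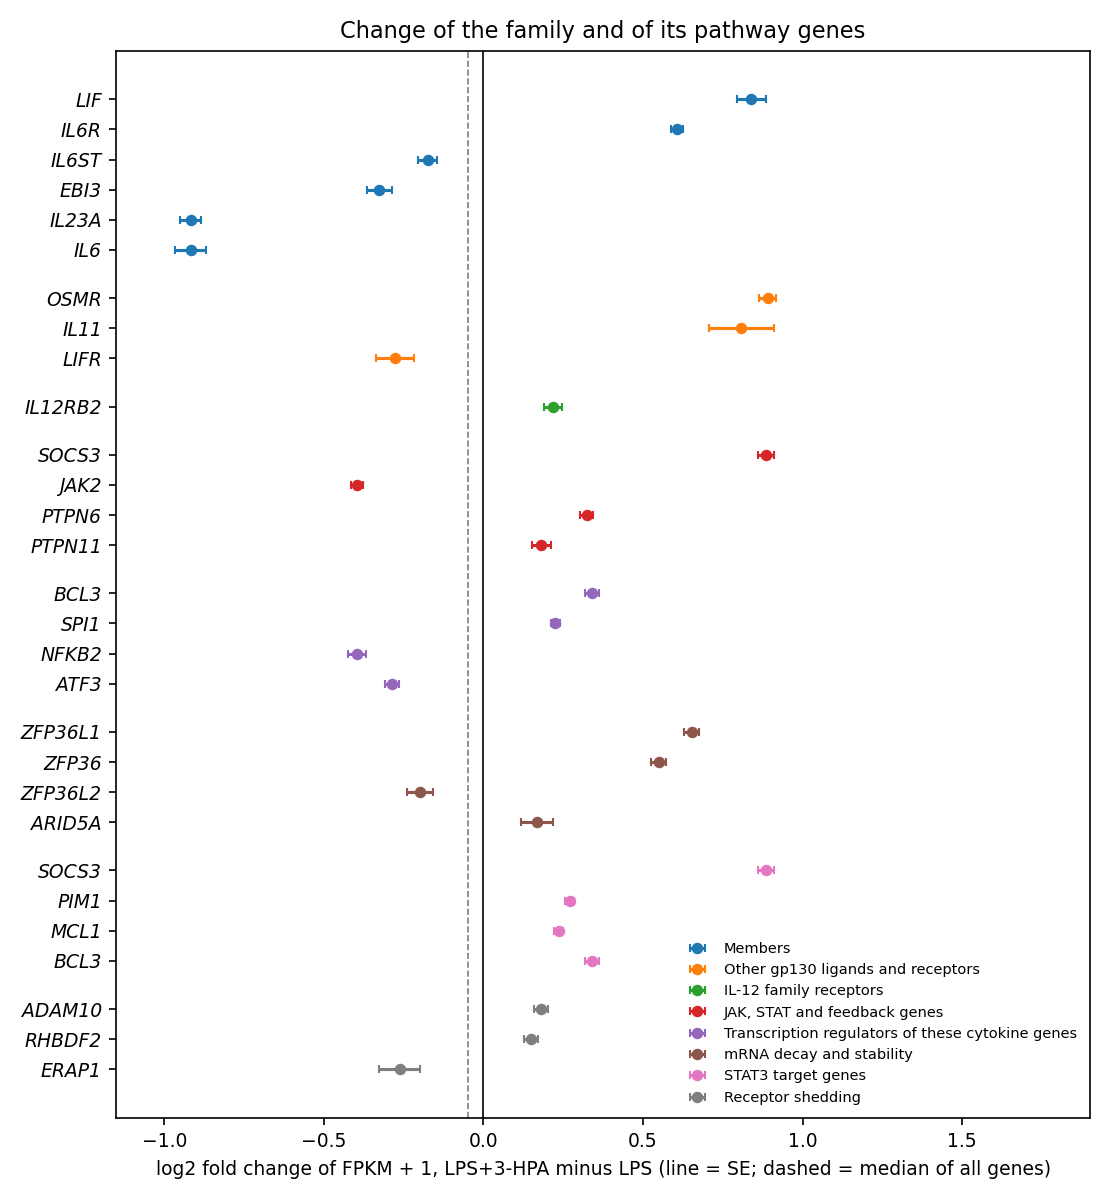
Log2 fold change of FPKM + 1 (LPS+3-HPA minus LPS) with its SE for the 6 tested members and for the genes named by smallest p from each pathway list, up to 4 per list. The members spread from -0.92 (IL6, IL23A) to 0.84 (LIF), and OSMR (0.89), SOCS3 (0.88) and IL11 (0.81) lie as far to the right as LIF.

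Depth, recovered from the FPKM values, was 35647756 to 40362671 reads in LPS+3-HPA libraries and 37509810 to 41859879 reads in LPS libraries, and no library stood apart. Macrophage markers summed to 1056 to 1107 FPKM in LPS+3-HPA libraries and 822.6 to 838.6 FPKM in LPS libraries. CD14 (0.77), CSF1R (0.49), SPI1 and ITGAM were higher and MSR1 and FCGR1A lower. LYZ did not pass (-0.09, limma adjusted p = 0.244), and CD68 was listed at 2 to 11 reads per library. Markers of B cells (at most 0.486 FPKM in sum in LPS+3-HPA libraries and 0.497 FPKM in LPS libraries) and epithelial cells (at most 0.039 FPKM in sum in LPS+3-HPA libraries and 0 in LPS libraries) were near 0. The 2 T- and NK-cell markers with values, GNLY and NKG7, summed to 10.3 to 13.2 FPKM in LPS+3-HPA libraries and 7.01 to 9.26 FPKM in LPS libraries, of which GNLY rose (0.78), while CD3D, CD3E, CD3G and CD2 were not analysed here. Fibroblast markers summed to 3.66 to 4.03 FPKM in LPS+3-HPA libraries and 1.95 to 2.29 FPKM in LPS libraries. Most of it was COL1A1, which rose (0.65), with COL1A2 and LUM at no more than 2 reads per library. The 2 of 4 dendritic-cell markers with values, CD1C and FLT3, summed to 0.991 to 1.18 FPKM in LPS+3-HPA libraries and 0.75 to 1.08 FPKM in LPS libraries. CD1C, below the filter, had 0.531 FPKM in LPS+3-HPA libraries and 0.239 FPKM in LPS libraries, without overlap. FLT3 had 0.531 and 0.651 FPKM, with overlap, and did not pass. The part of all these markers in the results above was not tested.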

How the data were processed

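RNA-seq was measured in 8 THP-1 libraries, 4 per group. Per the labels, the deposited values are FPKM. Per the submitters' processing notes the authors used fastp 0.22.0, HISAT2 2.1.0 and featureCounts on GRCh38; an annotation release and a strand setting are not stated there. The test was limma 3.58.1 under R 4.3.3, run on log2(FPKM + 1) with a mean-variance trend, two-sided, in genes with at least 0.5 FPKM in at least 4 libraries, adjusted by Benjamini-Hochberg over 12499 genes at 0.05. Whole reads were recovered from the FPKM values by searching for library totals and gene lengths that make them whole (within 0.01), for 30231 of 30233 genes. In each library 1947 to 2031 genes held 2 such reads and only 1030 to 1118 held 1. A recovered read therefore need not be an independent fragment, and small read counts may overstate the evidence. The reads were used for limma voom, which also takes the spread between libraries. Libraries of a group differed by more than counting error (chi-square per gene of 6.147 to 7.22). The fits were tested on simulated data. Members, lists and rules were chosen with earlier results of these data known. Genes named are the members, up to 4 passing genes per pathway list by smallest p, and the 3 most like IL6; every other pathway gene named, such as CLCF1, IL12RB1, STAT3, JUNB, NFKBIA and ADAM17, was chosen after its values were seen. Symbols and positions come from the reference tables (GENCODE 29), promoters from RefSeq. Alternatives were other pseudocounts, filters and scalings, no trend, voom, the replicate number as a block and leaving out each library. 2 genes of the pathway lists are not analysed here, and some genes that the lists count are not reported here by name. Figures were drawn with matplotlib 3.10.9, and tables handled with pandas 2.3.3 in Python 3.11.15.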

Additional observations from a re-analysis of the deposited data

Results flagged for a closer look

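None of the 10 family members had a library far from the rest of its group. Among 100 groups of 4 libraries examined over the members and the other named genes, 5 had a library whose gap to the nearest other, over the group's range, exceeded Dixon's critical value; chance gives about 1 in 20. PTPN6 had 56.8 FPKM in LPS library 2, against 54.0 to 54.4 FPKM in the other LPS libraries. ADAM10 had 15.1 FPKM in LPS+3-HPA library 2, against 14.6 to 14.7 FPKM in the others of that group. MIR3945HG had 8.84 FPKM in LPS library 3, against 9.10 to 9.14 FPKM in the others. NFKB1 had 12.1 FPKM in LPS+3-HPA library 4, while the others of that group stood at 11.7 FPKM. TIMP1 had 455 FPKM in LPS library 2, against 483 to 486 FPKM in the other LPS libraries.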

How the results depend on the processing

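Each of the 6 tested members kept its direction and its call in 18 of 18 alternatives, with 2 members higher and 4 lower throughout. The log2 fold change ranged from -1.008 to -0.859 for IL6, -0.954 to -0.853 for IL23A, -0.364 to -0.259 for EBI3, -0.209 to -0.116 for IL6ST, 0.571 to 0.668 for IL6R and 0.811 to 1.068 for LIF. The same-numbered libraries did not deviate together (correlations -0.023 to 0.089), so the numbers name libraries only. With the replicate number as a block, 5074 genes passed, against 5462 without it. The difference in the log2 ratio of IL6R to IL6ST (0.819) had an exact sign-flip p of 0.125, the smallest that 4 pairs can give. That p too was fixed by the separation of the groups in both genes. Of all genes tested, limma voom on the recovered reads called 5789. Genes called ranged from 4825 to 5926 over the alternatives. Of 40 other named genes 32 kept direction and call in each alternative. Reversals were in genes that had not passed: under TMM, IL12RB1 (0.014), STAT3 (0.049), NFKBIA (0.041) and JUNB (0.003); under quantile normalisation, IL12RB1 (0.005) and JUNB (0.035); with equal totals, ADAM17 (-0.024); and, leaving out 1 library each, IL12RB1 ranged from -0.078 to 0.02; the cause was not tested. Depth limits OSM, IL12A, IL12B and IL27, with 0 to 44 reads per library.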
